A study of Mus musculus with 60 samples.

Results

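Lung and liver RNA of mice that never received the test compound was compared here, as the difference between the 2 tissues at dose 0. The 10 arrays of the comparison were chosen by their titles out of 60 in the series, and they held 5 lungs and 5 livers of the same 5 vehicle mice, numbered 1 to 5. The study gave benzo(ghi)perylene, a polycyclic aromatic hydrocarbon, to adult male mice by mouth and profiled lung, liver and forestomach. All animals were transgenic Muta Mouse (strain 40.6), which carry a bacterial lacZ reporter gene for mutations in every cell. The vehicle mice (D0) were about 10 weeks old and received olive oil alone by gavage for 28 days, and tissues were taken 72 h after the final dose. Of the dosed groups, D1 received 6.25 mg, D2 12.5 mg and D3 25 mg of the compound per kg body weight a day in the same oil and on the same schedule, with 5 mice each. The mice were exsanguinated, and RNA came from a random slice of frozen tissue, per the study's methods from 1 lobe of the lung (right) or of the liver (left), so an array measures a mixture of all cell types in the slice and not the whole organ. In such bulk RNA fewer cells of a type and less RNA per cell cannot be told apart.

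On every array 200 ng of tissue RNA was labelled with Cy5 and hybridised against Cy3-labelled Universal Mouse Reference RNA, a pool of 11 mouse cell lines, with the same dye orientation throughout. A level is therefore the log2 ratio of Cy5 to Cy3, tissue over reference, and a difference is the mean log2 ratio of the 5 lungs minus that of the 5 livers. Positive differences are higher in lung and negative ones higher in liver. Lung and liver arrays lay on different slides: the vehicle lungs on 5 slides, 1 on each, and the vehicle livers on 3 others. Slide and tissue cannot be told apart in this design.

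Most of the gas exchange surface of the lung is lined by flat alveolar type 1 cells, while cuboidal type 2 cells make surfactant, the film of lipid and protein that keeps alveoli open. Airways are lined by club and ciliated cells, and a dense capillary bed and elastic fibres lie in the alveolar wall. Liver is built mainly of hepatocytes, which make most plasma proteins, the urea and the bile acids of the body and hold most of its drug-metabolising enzymes, and its capillaries are sinusoids lined by scavenging endothelium and Kupffer cells, the resident macrophages.

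The share of probes well above background in Cy5 was 34.9% to 58.6% in the lungs and 36.3% to 46.2% in the livers. Log2 ratios correlated at 0.903 to 0.972 between lungs, at 0.968 to 0.986 between livers and at 0.343 to 0.386 between a lung and a liver. Each tissue carried its own defining markers, surfactant proteins or albumin, on all 5 of its arrays. The lung array of mouse 1 stood apart from the other 4 lungs. Its mean level over the skeletal muscle list was 5.1, against -1.09 to -0.46 in the other lungs and -0.85 to -0.49 in the livers. Its mean over the squamous epithelium list was 2.87, against -0.5 to -0.11 in the other lungs. Heart muscle genes varied more widely, with list means of 4.12, 1.73, 2.93, 0.22 and 3.9 in the lungs of mice 1 to 5 and -0.87 to -0.7 in the livers. Their part in the results was not tested, and where the call of a named gene or the count of a list changed without the lung of mouse 1, the changed value is given.

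**Figure D1:**
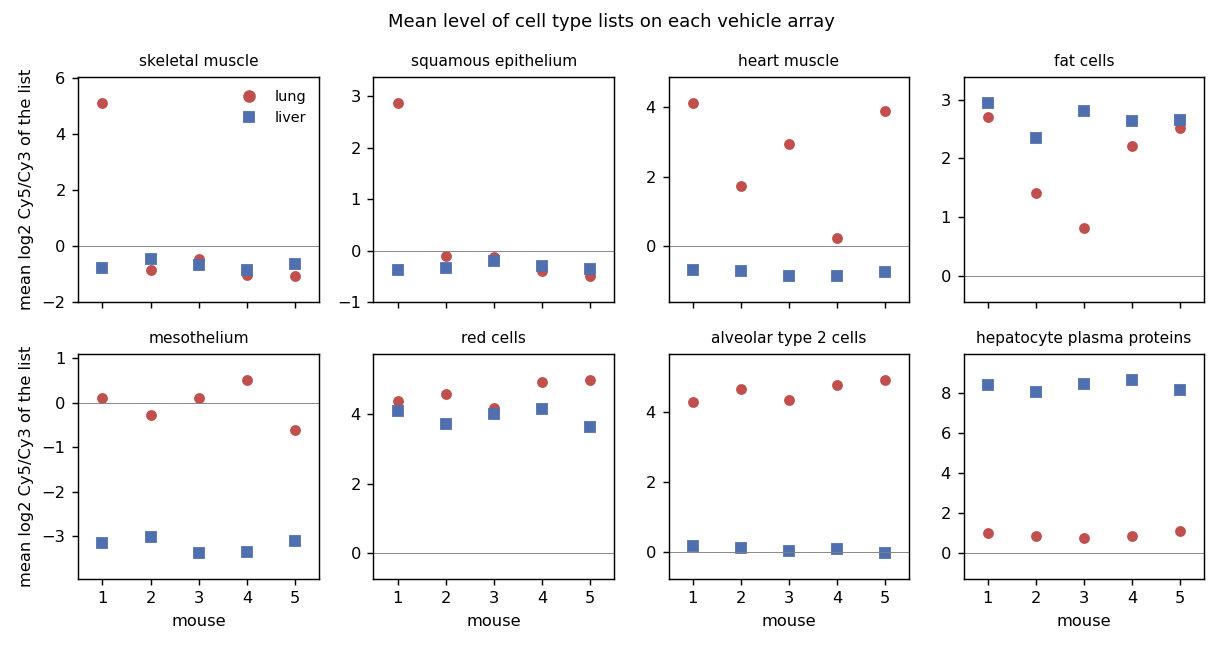
Mean log2 Cy5/Cy3 over the tested genes of 8 cell type lists on each vehicle array, with mice 1 to 5 on the horizontal axis, lungs as circles and livers as squares. The lung of mouse 1 stands alone for skeletal muscle (5.1) and squamous epithelium (2.87), heart muscle varies among all lungs, and the alveolar type 2 and plasma protein lists separate the tissues in every mouse.

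Lung and liver differed widely. Of 25544 probes that were well above background on at least 5 of the 10 arrays, 13716 (53.7%) were called, meaning a Benjamini-Hochberg adjusted p of at most 0.05 in limma and a difference of at least 1.5-fold. Of these, 7547 (29.5%) were higher in lung and 6169 (24.2%) higher in liver. Taking 1 probe per gene, 4528 of 13199 genes (34.3%) were higher in lung, 3370 (25.5%) were higher in liver and 5301 were not called, with a median difference of 0.12 on the log2 scale. The 41 gene lists used here held 617 entries, of which 609 had a probe and 552 were tested, and their counts are to be read against these shares. Without the lung of mouse 1, 13812 probes were called, 13482 of them also called with it.

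Large fitted differences lay mostly on the liver side. At 4-fold or more on the fitted ratio the probes were nearly balanced, 1968 higher in lung and 1675 higher in liver, whereas at 64-fold or more there were 39 and 307. Counted as genes, 31 were higher in lung and 242 in liver by 64-fold or more on the fitted ratio. The median size over all called genes was alike, 1.45 and 1.4 on the log2 scale. These counts include probes that were dim in 1 tissue, for which the lower bound described below can be smaller. Clec4f, for example, was at 74.3-fold on the ratio with a bound of 27.1-fold. No count was made on the bounds. The filter itself admits probes through 1 tissue: 1073 tested probes were above background in all 5 lungs and in no liver, and 1031 of them were called higher in lung, while 492 were above background in all 5 livers and no lung, and 488 of them were called higher in liver. For a probe that was dim on all 5 arrays of a tissue, the fold is given as a lower bound ("at least"). It is the lowest of 3 values: the fold of the ratio, the bound on Cy5 after loess and Aquantile normalization, and the bound on quantile-normalized Cy5, both set against the dimmest measurable signal. The fitted log2 difference printed beside it is then no measured size and can exceed the bound. The scale mattered, since for Apoa1 these were 311, 2360 and 1080. Such bounds are open to dye bias, since dyes were not swapped.

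Promoters of 4 marker genes are shown first, because they carry short motifs of factors known in these organs: the forkhead (FOXA) factors, of which Foxa3 mRNA was higher in liver, and NKX2-1, the homeodomain factor of lung epithelium. Each run holds the 250 bases before the transcription start in RefSeq (build GRCm38.p6), 5′ to 3′ on the gene's strand. Capitals mark TGTTTGC, a forkhead core, and CTCAAG, the core of the NKX2-1 site, on either strand in all 4 promoters. The liver genes are Alb (chr5:90460620-90460869, + strand) and Fabp1 (chr6:71199629-71199878, + strand), and the lung genes are Sftpb (chr6:72304360-72304609, + strand) and Sftpa1 (chr14:41131538-41131787, + strand).
Alb: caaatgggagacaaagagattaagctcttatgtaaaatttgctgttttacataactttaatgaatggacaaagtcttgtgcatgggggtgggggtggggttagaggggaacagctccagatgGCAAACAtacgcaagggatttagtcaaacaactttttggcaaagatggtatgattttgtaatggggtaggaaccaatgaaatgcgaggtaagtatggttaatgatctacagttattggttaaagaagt
Fabp1: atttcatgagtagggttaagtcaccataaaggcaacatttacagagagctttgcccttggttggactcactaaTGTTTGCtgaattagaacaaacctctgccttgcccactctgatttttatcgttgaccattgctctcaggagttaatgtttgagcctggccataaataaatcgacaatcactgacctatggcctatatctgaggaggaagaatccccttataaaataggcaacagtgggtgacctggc
Sftpb: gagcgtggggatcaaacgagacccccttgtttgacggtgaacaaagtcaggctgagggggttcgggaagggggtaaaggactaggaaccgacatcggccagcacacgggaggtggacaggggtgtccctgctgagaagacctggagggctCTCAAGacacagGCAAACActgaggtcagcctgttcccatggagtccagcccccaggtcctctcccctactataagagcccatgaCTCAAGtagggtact
Sftpa1: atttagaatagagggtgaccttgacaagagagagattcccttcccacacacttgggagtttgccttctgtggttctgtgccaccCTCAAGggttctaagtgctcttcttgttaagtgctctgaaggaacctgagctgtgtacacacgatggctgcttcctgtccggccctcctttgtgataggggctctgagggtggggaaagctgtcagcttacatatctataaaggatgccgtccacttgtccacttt

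TGTTTGC lay 177 bases before the start in Fabp1 and, on the opposite strand, 128 in Alb and 88 in the lung gene Sftpb, and CTCAAG began 100 and 15 bases before the start in Sftpb and 166 in Sftpa1. The sets by fold used here go by the fitted ratio and not by the bounds. For Nkx2-1 the ratio was 16.4-fold and the bound 12.2-fold. Searched on both strands, TGTTTGC was present in 40 of 380 promoters (10.5%) of genes higher in liver by 16-fold or more. It was present in 10 of 205 (4.88%) of those higher in lung by 16-fold or more. Of all tested genes with a promoter, 446 of 10485 (4.25%) held TGTTTGC, as did 1413 of 32851 windows (4.3%) in the whole table. TGTTTGC was present in 24 of 183 (13.1%) at 64-fold or more higher in liver, in 12 of 76 (15.8%) on the hepatocyte lists and in 5 of 52 (9.62%) on the lung cell lists. TATAAA, the letters of the TATA box, was present in 76 (20%), 25 (12.2%), 943 (8.99%) and 4063 (12.4%) of the first 4 sets. It was counted anywhere in the window and on either strand, so a match need not be a TATA box. The sets of genes count a gene with a match in any of its windows, whereas the whole table counts single windows. CTCAAG was common in them, in 52 (13.7%), 36 (17.6%), 1543 (14.7%) and 4378 (13.3%), and was present in 11 of 76 (14.5%) on the hepatocyte lists and 11 of 52 (21.2%) on the lung cell lists. CCAAT, the letters of the CCAAT box, was present in 167 (43.9%), 72 (35.1%), 4187 (39.9%) and 11120 (33.8%). None of the 4 motifs contains another. These shares are descriptions of letters in a window, and a match is not evidence of binding.

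Surfactant and alveolar genes set the lung apart most. Of 16 tested type 2 cell genes, 14 were higher in lung, with a median difference of 4.46. Sftpc (surfactant protein C) reached log2 ratios of 8.13, 8.49, 8.66, 8.26 and 8.75 in the lungs of mice 1 to 5 and 0.68, 0.25, 0.03, -0.01 and 0.11 in their livers. Every lung lay far above every liver, and the difference was 8.25 ± 0.159 (SE, limma adjusted p = 3.83e-13). Sftpb (surfactant protein B) stood at 6.38, 6.68, 5.95, 6.82 and 7.33 in the lungs and -0.04, -0.08, -0.16, 0.05 and -0.1 in the livers. The groups did not overlap (6.70 ± 0.205, adjusted p = 2.4e-11), and the level was at least 104-fold higher in lung. Sftpa1 and Sftpd, the collectins of surfactant, differed by 7.05 ± 0.109 (adjusted p = 7.63e-14) and 6.27 ± 0.157 (adjusted p = 4.05e-12). Sftpd was measurable in all livers, at 1.36 to 1.97 in log2 ratio, against 7.72 to 8.46 in the lungs. The aspartic protease Napsa (6.47), the lysozyme Lyz1 (7.26) and the chemokine Cxcl15 (5.78, at least 55.1-fold) followed. The 2 genes that were not called were Ctsh, a lysosomal protease measured at 6.45 ± 0.241 in lung and 6.56 ± 0.217 in liver (SD, n = 5), and Dlk1 (-2.87 ± 0.341 and -2.71 ± 0.261). On Cy5 alone Dlk1 was called higher in liver (-0.73).

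Alveolar type 1 genes were called higher in lung for 11 of 13, with a median of 4.3. Aqp5 (a water channel) stood at 5.13, 5.45, 5.8, 5.89 and 5.81 in the lungs and -2.5, -1.84, -2.46, -2.68 and -2.29 in the livers. All lungs were high and all livers low (7.97 ± 0.183, adjusted p = 1.74e-12). Ager, the receptor for advanced glycation end products, was not well above background in any liver and at least 64.6-fold higher in lung (6.01 ± 0.217, adjusted p = 1.12e-10). Pdpn (podoplanin, 4.3), Clic5 (6.66) and Akap5 (7.26, at least 134-fold) were higher in lung as well. The homeobox gene Hopx stood at 4.71, 4.93, 4.7, 5.02 and 5.55 in the lungs and 4.38, 4.53, 5.02, 4.74 and 4.14 in the livers. Its groups overlapped and it was not called on the ratio (0.42 ± 0.192, adjusted p = 0.0671), a value that differed on Cy5 alone as described further down. Igfbp2, an IGF-binding protein that liver also secretes, was the 1 member higher in liver (-1.39 ± 0.243, adjusted p = 0.000218).

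Airway genes were more variable from lung to lung. Of 10 tested club and secretory cell genes, 8 were higher in lung (median 3.96). Scgb1a1, the club cell secretoglobin, stood at 7.6, 7.41, 7.61, 7.67 and 7.86 in the lungs and 0.78, 0.2, 0.36, 0.35 and 0.16 in the livers. The lungs were close to each other and far from the livers (7.26 ± 0.133, adjusted p = 2.53e-13). Bpifa1, a secreted protein of the upper airway, spread from 2.03 to 6.54 among the lungs with values of 6.54, 4.14, 3.63, 2.03 and 5.11. Mouse 4 was lowest and mouse 1 highest, yet every lung lay above every liver (4.33 ± 0.619, adjusted p = 4.19e-05, at least 12.3-fold). Scgb3a1, another secretoglobin, showed a like spread, with 5.26, 3.05, 2.96, 3.45 and 5.4 in the lungs and 0.07 to 0.26 in the livers (at least 14.9-fold). Cyp2f2, the P450 of club cells that hepatocytes also make, stood at 7.29, 7.21, 7.19, 7.1 and 7.73 in lung and 7.68, 7.39, 7.73, 8.1 and 7.52 in liver. Its groups overlapped, and a difference of -0.38 ± 0.155 (adjusted p = 0.0422) fell short of 1.5-fold. On quantile-normalized Cy5 alone it was called higher in lung (1.06, limma adjusted p = 1.03e-06), although its Cy5 signal before normalization differed by -0.17. Aldh1a1, a retinaldehyde dehydrogenase, was not called either (-0.28 ± 0.2, adjusted p = 0.22).

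All 11 tested genes of ciliated cells were higher in lung (median 2.93), and 3 more on the list were not tested. Foxj1, the factor that switches on motile cilia, stood at 3.31, 2.95, 2.2, 3.27 and 4.14 in the lungs and -0.32, -0.16, 0.21, 0.12 and -0.09 in the livers. No lung overlapped a liver (3.22 ± 0.278, adjusted p = 4.15e-07). The axonemal genes Tekt1 (4.16 ± 0.268, at least 12-fold), Dnah5 (3.83 ± 0.334, at least 5.69-fold) and Rsph1 (2.92 ± 0.233, at least 5.94-fold) differed in the same direction, and none was well above background in a liver. The mean over the list was lowest in the lung of mouse 3 (2.39) and highest in that of mouse 5 (4.05). This order was not particular to ciliated cells. These lungs were also lowest and highest for the endothelial (3.51 and 4.87) and alveolar macrophage lists (3.29 and 4.44). The type 2 list was instead lowest in mouse 1 (4.27). The lungs of mice 3 and 5 had the lowest and highest share of probes above background (34.9% and 58.6%), and a link was not tested.

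**Figure D2:**
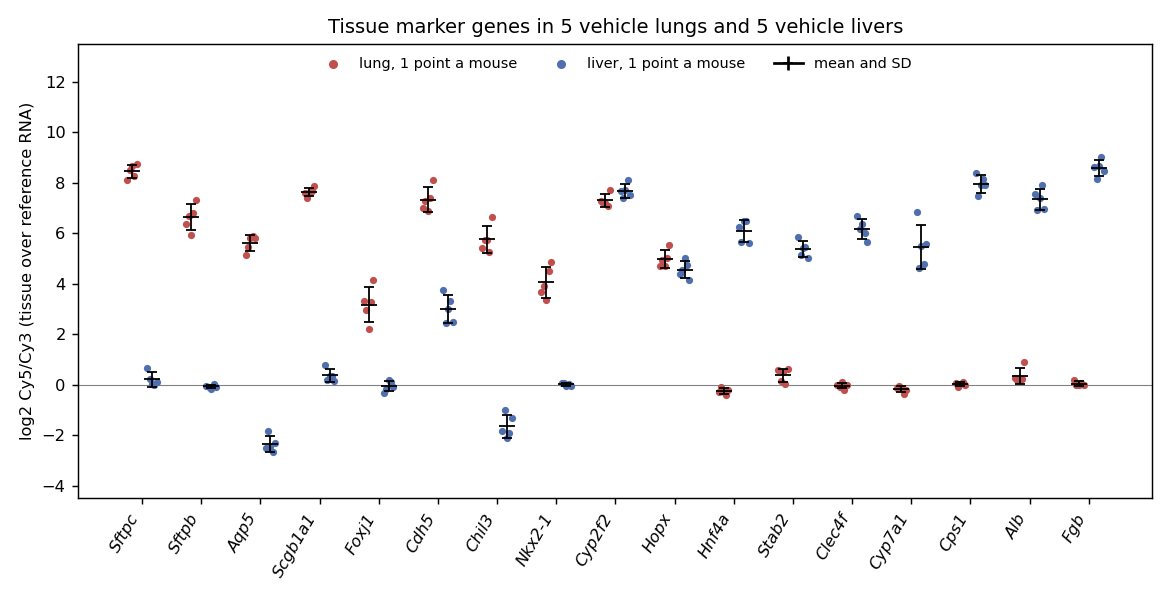
Log2 Cy5/Cy3 (tissue over reference RNA) of 17 marker genes in the 5 vehicle lungs and 5 vehicle livers, 1 point a mouse, with the mean and SD in black. Lung markers from Sftpc (8.46 in lung, 0.21 in liver) to Nkx2-1 and liver markers from Hnf4a to Fgb (0.049 and 8.58) separate without overlap, while Cyp2f2 and Hopx lie at like ratios in both tissues.

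Genes on the list of lung endothelium were mostly higher in lung, and sinusoidal ones were mostly higher in liver. Of the 20 genes on the first list, 19 were higher in lung (median 2.68). Cdh5 (VE-cadherin, the adhesion protein of endothelial junctions) stood at 6.99, 7.27, 6.9, 7.41 and 8.12 in the lungs and 3.77, 2.46, 2.99, 3.33 and 2.49 in the livers. The lowest lung was above the highest liver (4.33 ± 0.28, adjusted p = 2.77e-08). Cldn5, the claudin of tight endothelium, differed by 3.37 ± 0.263 (adjusted p = 1.63e-07), Pecam1 by 2.58 ± 0.291 (adjusted p = 5e-06) and the capillary carbonic anhydrase Car4 by 1.36 ± 0.175 (adjusted p = 1.7e-05). The processed signals of the scanner software gave 0.75 for Cldn5, which ended its call. Nos3, the endothelial nitric oxide synthase, was not called (0.20 ± 0.221, adjusted p = 0.438).

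Of 11 sinusoidal endothelial genes, 7 were higher in liver, 1 was higher in lung and 3 were not called (median -2.17). The count higher in lung was 2 without the lung of mouse 3, without the liver of mouse 1 or with normexp, and 3 on Cy5 alone. Stab2, a hyaluronan scavenger receptor, stood at 5.87, 5.14, 5.4, 5.47 and 5.01 in the livers and 0.58, 0.14, 0.49, 0.05 and 0.61 in the lungs. The groups lay far apart (-5.01 ± 0.172, adjusted p = 6.93e-11), as for the lectin Clec4g (-5.67 ± 0.317, adjusted p = 6.75e-09) and for Oit3 (-3.78 ± 0.228). Lyve1, a hyaluronan receptor of sinusoids that lymphatic vessels also carry, went the other way, with 5.82, 6.09, 5.41, 7 and 6.87 in the lungs and 1.48, 0.75, 2.66, 1.8 and 1.22 in the livers. All 5 lungs were above all 5 livers (4.66 ± 0.368, adjusted p = 1.82e-07). Stab1, Mrc1 and Gpr182 differed by -0.047, 0.25 and 0.52 and were not called. On Cy5 alone Stab1 (0.62) and Gpr182 (1.74) were called higher in lung, whereas Gpr182 was called higher in liver on processed signals (-1.92).

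Matrix and smooth muscle genes were mostly higher in lung, 14 of 17 and 9 of 10 tested members, with medians of 2.67 and 2.68. Mfap4, a microfibril protein of elastic fibres, differed by 5.78 ± 0.225 (adjusted p = 2.28e-10), Fbln5 by 3.41 ± 0.168, elastin (Eln) by 2.27 ± 0.239 and Col1a1 by 2.67 ± 0.153. Tagln, an actin-binding protein of smooth muscle, stood at -0.21, 0.08, 0.03, 0.02 and 0.31 in the lungs and -3.29, -3.33, -3.16, -3.26 and -3.13 in the livers. The spread within a tissue was small next to the gap (3.28 ± 0.108, adjusted p = 4.4e-11). Fn1 (fibronectin, which hepatocytes secrete into plasma) was higher in liver (-1.89 ± 0.173, adjusted p = 7.22e-07), and so was the pericyte gene Rgs5 (-1.23 ± 0.375, adjusted p = 0.0103). Of 10 genes of hepatic stellate cells, the vitamin A storing cells, 6 were higher in liver, among them the collectins Colec11 (-5.23 ± 0.229) and Colec10 (-5.63 ± 0.233). Lrat, which esterifies retinol, was the 1 member higher in lung (1.68 ± 0.551, adjusted p = 0.0156).

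Each tissue showed its own macrophage. Of 11 alveolar macrophage genes, 10 were higher in lung (median 3.28). Chil3, a chitinase-like protein of alveolar macrophages, stood at 5.43, 5.72, 5.75, 5.27 and 6.66 in the lungs and -1.84, -1.01, -2.09, -1.92 and -1.32 in the livers. It was at least 142-fold higher in lung with no overlap (7.40 ± 0.268, adjusted p = 1.14e-10). Marco, a scavenger receptor, was less well separated, with 4.28, 5.25, 4.1, 5.55 and 3.3 in the lungs and 1.34, 3.22, 1.77, 1.46 and 3 in the livers. The lowest lung was only slightly above the highest liver (2.34 ± 0.47, adjusted p = 0.000662). Fabp1 was also on this list and was higher in liver (-6.92), where it is the main fatty acid binding protein of hepatocytes. Among 9 Kupffer cell genes, 6 were higher in liver and none in lung (median -3.33). Clec4f, the Kupffer cell lectin, stood at 6.7, 6.16, 6.36, 6.03 and 5.64 in the livers and -0.02, -0.07, 0.1, -0.19 and 0 in the lungs. Every liver was high, and the difference was at least 27.1-fold (-6.21 ± 0.167, adjusted p = 7.43e-12). Cd5l (-6.18 ± 0.193, at least 26.8-fold) and the complement receptor Vsig4 (-5.71 ± 0.254) were similar, whereas the general macrophage gene Adgre1 (F4/80) was not called (-0.15 ± 0.211, adjusted p = 0.541).

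Lymphocyte and antigen presentation genes were higher in lung. All 8 tested genes of MHC class II presentation were called (median 2.66). Cd74, the invariant chain, stood at 3.37, 3.79, 3.65, 3.47 and 3.57 in the lungs and -0.87, -1.23, -1.59, -1.3 and -1.66 in the livers. The groups were tight and apart (4.90 ± 0.15, adjusted p = 2.4e-11). Of 6 B cell genes 5 were higher in lung, with Cd79b at 4.82 ± 0.215 and Ms4a1 (CD20) at 3.17 ± 0.212, and of 8 T and NK cell genes 6 were higher in lung, with the granzyme Gzma at 4.8 and Cd3d at 3.03 ± 0.207. Cd3e was not called (0.046 ± 0.221, adjusted p = 0.861). The number of T and NK genes called was 7 without the lung of mouse 1. Of 20 chemokines and receptors, 13 were higher in lung and 5 in liver, and 12 were higher in lung without the lung of mouse 1. They included the lymphoid chemokine Ccl21a (2.73 ± 0.446, adjusted p = 0.000129), Ccl6 (3.13 ± 0.318) and Cx3cl1 (4.35), while Ccl9 (-2.85), Cxcl1 (-1.7) and Cxcl9 (-1.54, at least 2.26-fold) were higher in liver. On processed signals Ccl21a was at 0.35 and not called.

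**Figure D3:**
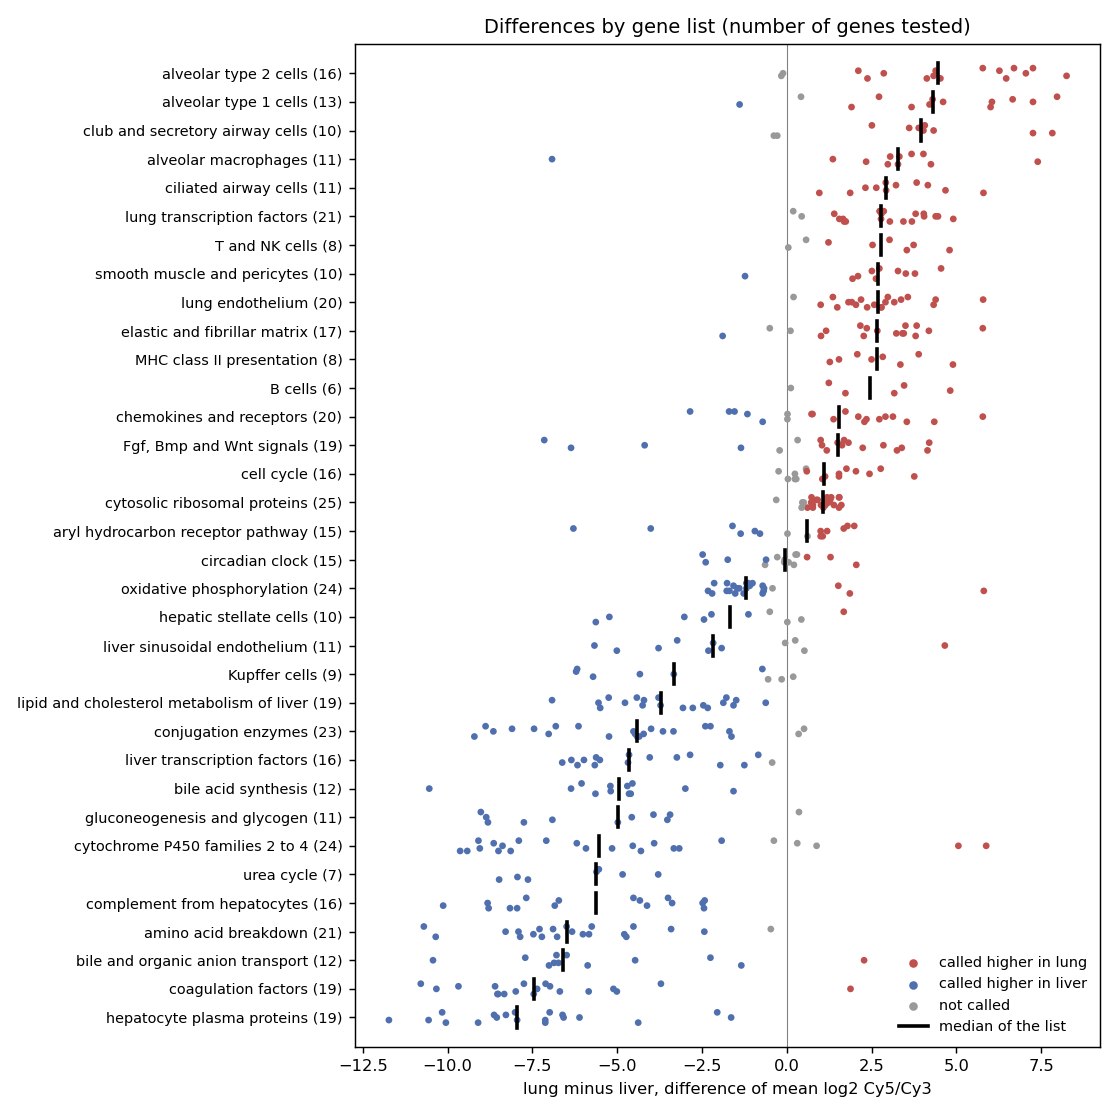
Lung minus liver difference of mean log2 Cy5/Cy3 for the tested genes of 34 lists, 1 point a gene, coloured by call, with the median of the list as a black bar and the number of genes tested in brackets. Medians run from 4.46 for alveolar type 2 cells to -7.95 for hepatocyte plasma proteins, and a few genes of most lists lie on the other side of 0.

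Secreted proteins of hepatocytes made the widest gap of all lists. All 19 plasma protein genes were higher in liver (median -7.95), as were 18 of 19 coagulation factors (-7.46) and all 16 complement genes (-5.62). Alb (albumin) stood at 7.57, 6.93, 7.38, 7.92 and 6.96 in the livers and 0.27, 0.19, 0.18, 0.25 and 0.91 in the lungs. The lung of mouse 5 was the highest lung and still far below any liver (-6.99 ± 0.205, adjusted p = 1.64e-11). Apoa1, the main protein of high-density lipoprotein, stood at 8.4, 7.98, 8.35, 8.77 and 8.08 in the livers and 0.01, 0.04, 0.12, 0.01 and 0.01 in the lungs. It was not well above background in any lung and at least 311-fold higher in liver (-8.28 ± 0.139, adjusted p = 1.28e-13). The fibrinogen chains Fgb, Fga and Fgg differed by -8.53 ± 0.143, -8.6 ± 0.138 and -10.33 ± 0.181, and prothrombin (F2) by -8.33 ± 0.118. Fgb and Fga were not well above background in any lung, and the livers were at least 370-fold and 329-fold higher. Haptoglobin (Hp) and transferrin (Trf), which bind haemoglobin and iron, differed least on the plasma protein list, by -1.64 ± 0.295 and -2.05 ± 0.197, and both were well above background in all lungs. Among the complement genes, C8a, C8b and C9, of the membrane attack complex, were not well above background in any lung and at least 68.9-fold, 287-fold and 50.6-fold higher in liver, whereas C3 (-4.52 ± 0.182) was measured in all lungs.

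Nitrogen and amino acid metabolism followed the same direction, with 7 of 7 urea cycle genes (median -5.61) and 20 of 21 genes of amino acid breakdown (-6.49) higher in liver. Cps1, the entry enzyme of the urea cycle, stood at 8.39, 7.46, 7.9, 8.16 and 7.91 in the livers and 0.06, -0.09, 0.03, 0.11 and 0.01 in the lungs. No lung was well above background (-7.94 ± 0.151, adjusted p = 3.29e-13, at least 87.1-fold). Of the enzymes of tyrosine breakdown, Tat (-7.47 ± 0.11), Hpd (-8.29 ± 0.137, at least 313-fold) and Hgd (-7.86, at least 89.3-fold) had wide differences, while Gstz1 (-4.22 ± 0.108) and Fah (-3.41 ± 0.148) were measured in all lungs. Otc of the urea cycle differed by -8.48 ± 0.146. Ornithine aminotransferase (Oat) was the 1 gene not called (-0.47 ± 0.218, adjusted p = 0.0706).

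Bile acid synthesis was called higher in liver for 12 of 12 genes (median -4.94) and varied between livers. Cyp7a1, the rate-limiting enzyme, stood at 6.83, 4.63, 5.5, 4.8 and 5.56 in the livers and -0.12, -0.05, -0.14, -0.36 and -0.21 in the lungs. The liver of mouse 1 was highest and that of mouse 2 lowest, and all were above all lungs (-5.64 ± 0.328, adjusted p = 9.84e-09, at least 16.1-fold). Cyp8b1, which sets the share of cholic acid, showed the same 2 extremes with 7.12, 4.86, 5.36, 6.41 and 6.44 (-6.05 ± 0.344, at least 21.1-fold). The liver of mouse 2 was also lowest for other hepatocyte lists, such as plasma proteins (8.05), coagulation factors (7.08) and conjugation enzymes (5.15). Among the livers it had the lowest share of probes above background (36.3%), and a link was not tested. Of 12 transporters 11 were higher in liver, including the bile salt pump Abcb11 (-5.87 ± 0.124, at least 58.5-fold), Abcc2 (-6.49 ± 0.15, at least 41.1-fold) and Slco1b2 (-10.43, at least 685-fold).

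Energy metabolism of hepatocytes was also higher in liver. For gluconeogenesis and glycogen the count was 10 of 11 (median -4.98). Pck1, the committed enzyme of gluconeogenesis, stood at 9.78, 9.22, 9.02, 9.48 and 9.6 in the livers and 1.56, -0.06, 0.19, 0.09 and 0.24 in the lungs. The lung of mouse 1 was above the other lungs but far below the livers (-9.02 ± 0.275, adjusted p = 2.32e-11). G6pc, which releases free glucose, was at least 120-fold higher (-6.91 ± 0.181). All 19 tested genes of lipid and cholesterol metabolism were higher in liver, with a smaller median of -3.72 and a range from Acaca (-0.62) to Fabp1. Acaca lost its call on Cy5 alone (-0.34), with the deposited ratios (-0.38), with normexp (-0.58) and without the lung (-0.52) or the liver (-0.5) of mouse 5. Fabp1 stood at 11.17, 10.78, 11.03, 11.19 and 11.23 in the livers and 4.27, 4.04, 2.05, 4.33 and 6.09 in the lungs. The livers were nearly identical while the lungs spread widely, with mouse 3 lowest and mouse 5 highest (-6.92 ± 0.533, adjusted p = 1.44e-07).

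Of 24 cytochrome P450 genes of families 2 to 4, 19 were higher in liver, 2 higher in lung and 3 not called (median -5.54). On Cy5 alone 4 were higher in lung. Cyp3a11 stood at 9.92, 8.94, 8, 9.03 and 9.19 in the livers and 0.08, 0.14, -0.21, 0.08 and -0.27 in the lungs. It was not well above background in any lung (-9.05 ± 0.271, adjusted p = 1.96e-11, at least 108-fold). Cyp2e1, an ethanol-metabolising enzyme, differed by -4.54 ± 0.328 and was measured in all lungs. Cyp4b1 ran the other way, with 7.65, 8.18, 7.56, 8.53 and 8.54 in the lungs and 3.86, 2.05, 3.62, 3.25 and 2.4 in the livers. All lungs were above all livers (5.06 ± 0.34, adjusted p = 4.07e-08), as for Cyp2s1 (5.88 ± 0.19, adjusted p = 3.92e-11). Members of the Cyp2c, Cyp2d and Ugt families are near-identical in sequence, and their probes may share signal. Conjugation enzymes were higher in liver for 21 of 23 (median -4.41), with the glucuronosyltransferases Ugt2b1 and Ugt2b5 not well above background in any lung and at least 85.6-fold and 209-fold higher in liver, while Gsto1 (0.51) and Gstm2 (0.35) were not called on the ratio and Gsto1 was called higher in lung on Cy5 alone (0.61).

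Genes of the aryl hydrocarbon receptor pathway, through which polycyclic aromatic hydrocarbons induce their own metabolism, were divided between the vehicle tissues. Of 15 tested genes, 7 were higher in lung, 6 in liver and 2 were not called (median 0.61). The receptor itself, Ahr, stood at 1.89, 2.28, 2.05, 2.08 and 1.99 in the lungs and 0.81, 0.91, 0.67, 1.18 and 1.4 in the livers. The lungs were higher without overlap (1.06 ± 0.143, adjusted p = 2.46e-05), whereas its partner Arnt was not called (0.021 ± 0.153, adjusted p = 0.909). Cyp1a2 was a liver gene, at 6.3, 6, 6.34, 6.61 and 5.85 in the livers and -0.19, -0.14, -0.05, 0.04 and 0.01 in the lungs. All livers were high (-6.29 ± 0.139, adjusted p = 1.23e-12, at least 78.1-fold). Cyp1b1 was higher in lung (1.00 ± 0.166, adjusted p = 0.000145), and so was Tiparp, a target gene of the receptor (1.99 ± 0.126). Cyp1a1 was well above background in 4 lungs and no liver and was not tested. Its log2 ratios were 0.64, 0.84, 0.44, 1.51 and 1.57 in the lungs and -0.08, -0.02, 0.36, 0.05 and -0.04 in the livers, so that every lung was above every liver.

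Transcription factors divided along the same line. Of 16 liver factors, 15 were higher in liver (median -4.66). Hnf4a, the nuclear receptor of hepatocyte identity, stood at 6.24, 5.65, 6.49, 6.5 and 5.63 in the livers and -0.27, -0.07, -0.28, -0.42 and -0.2 in the lungs. No lung was well above background, and the difference was at least 81.7-fold (-6.35 ± 0.182, adjusted p = 1.33e-11). The forkhead factor Foxa3 (-5.62 ± 0.164) and the nuclear receptors Nr1i3 (CAR, -6.17 ± 0.136, at least 37.3-fold) and Nr1h4 (FXR, -6.62 ± 0.246) differed in the same way. Of 21 lung factors, 19 were higher in lung (median 2.79). Nkx2-1 stood at 3.66, 3.93, 3.35, 4.51 and 4.85 in the lungs and 0.08, 0.06, -0.04, 0.05 and -0.05 in the livers. No liver was well above background (4.04 ± 0.238, adjusted p = 1.13e-08, at least 12.2-fold). The mesenchymal factors Tbx4 (4.91 ± 0.307, at least 11.6-fold), Tbx5 (3.8 ± 0.169, at least 9.5-fold) and Foxf1 (1.66 ± 0.171, at least 1.99-fold) were higher in lung as well. The pioneer factors Foxa1 (0.19 ± 0.256, adjusted p = 0.519) and Foxa2 (-0.43 ± 0.29, adjusted p = 0.202), which act in both endoderm-derived organs, were measured in all 10 arrays and not called. On Cy5 alone Foxa1 was called higher in lung (0.79, limma adjusted p = 0.0036), and without the lung of mouse 5 Foxa2 was called higher in liver (-0.63).

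Secreted signals included some of the widest differences outside the plasma proteins. Of 19 tested genes of Fgf, Bmp, Wnt and IGF signalling, 13 were higher in lung and 4 in liver. Igf1, the growth factor that liver releases under growth hormone, stood at 6.38, 6.02, 6.68, 6.72 and 6.16 in the livers and -1.11, -0.73, -0.66, -0.58 and -0.71 in the lungs. The livers lay far above the lungs (-7.15 ± 0.156, adjusted p = 1.12e-12). Its binding protein Igfbp1 spread from 3.31 in the liver of mouse 2 to 8.16 in that of mouse 5 (-6.36 ± 0.713, adjusted p = 4.79e-06, at least 27.9-fold). Fgf7, a mesenchymal growth factor for epithelium, was higher in lung (2.85 ± 0.175, adjusted p = 1.62e-08), as were Bmp6 (3.39), Dkk3 (4.2) and Vegfd (4.15). Fgfr4, the bile acid feedback receptor, was higher in liver (-1.35 ± 0.285, adjusted p = 0.000954). The list median was 1.5.

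Genes that every cell uses differed by less. Of 24 genes of oxidative phosphorylation, 20 were higher in liver and 3 in lung (median -1.19), with Ndufa4 at -1.57 ± 0.112 and Sdhb at -2.2. The 3 that were higher in lung were Cox4i2, an isoform known from lung (1.86 ± 0.126), and the striated muscle isoforms Cox6a2 (5.81 ± 0.371) and Cox7a1 (1.52 ± 0.475). Heart muscle genes moved with them, with 5 of 6 tested members higher in lung (median 3.18) and Myh6, the alpha myosin of heart muscle, at 6.71, 5.12, 6.19, 0.7 and 7.05 in the lungs and near 0 in the livers. The lung of mouse 4 stood far below the others, and the difference was 5.13 ± 0.949 (adjusted p = 0.000352, at least 35.1-fold), and the part of heart muscle in the result was not tested. Of 25 cytosolic ribosomal protein genes, 21 were higher in lung (median 1.08, Rpl3 at 1.39 ± 0.121), a count that fell to 6, with 1 higher in liver, when the processed signals of the scanner software were used. Of 16 cell cycle genes 10 were higher in lung (median 1.09), among them Mki67 (1.76 ± 0.217) and Ccnd1 (3.76), and none in liver. The called genes included inhibitors of the cycle, so 10 is not a count of proliferation genes alone. Top2a (0.24) and Ccnb1 (0.24) were not called. Of 15 clock genes 3 were higher in lung and 4 in liver, with Arntl (-0.64 ± 0.28, adjusted p = 0.0566) not called in the fit without mouse and Per1 higher in lung (2.05 ± 0.284, adjusted p = 3.14e-05). With mouse as a block Arntl was called higher in liver (-0.64), and so it was on Cy5 alone (-0.81, limma adjusted p = 0.00833). In mouse 1 both tissues were high for Per1, at 1.33 in lung and -0.64 in liver, against 0.14 to 0.36 and -2.1 to -1.7 in the others. Without the lung of mouse 1, 2 clock genes were higher in lung.

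Markers of cells that either organ may hold in small numbers were measured alongside. Mesothelial genes were higher in lung for 5 of 6, with means of -0.62 to 0.52 in the lungs and -3.37 to -3.02 in the livers. The keratins Krt19 (5.91 ± 0.158) and Krt7 (5.8 ± 0.171), which bile ducts share with lung epithelium, were higher in lung, and of 7 bile duct genes 4 were higher in lung and 2 in liver. None of the 5 tested squamous genes and none of the 3 tested skeletal muscle genes was called in limma, with 0 of them at an unadjusted p under 0.05. Without the lung of mouse 1, Tnni2 was called higher in lung (1.03) and Pvalb higher in liver (-1.45). Of 6 fat cell genes 2 were higher in lung and 2 in liver, and Fabp4 (-0.37) was called higher in liver without the lung of mouse 1 (-0.83). Of 5 red cell genes 2 were higher in lung and 1 in liver, and on Cy5 alone 4 were higher in lung and 0 in liver. Hba-a1 (haemoglobin alpha) stood at 6.21, 6.28, 6.21, 6.41 and 6.8 in the lungs and 6.28, 5.98, 6.16, 6.37 and 5.86 in the livers. Its groups overlapped (0.25 ± 0.142, adjusted p = 0.132), globin probes may share signal, and this value too differed on Cy5 alone (3.37).

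The genes with the largest differences among those measurable on all 10 arrays were a mixture of the groups above and others. In lung these were Mgp, Cbr2, Gsn, S100a6, Sparcl1, Tspan13, Clic5, Ahnak, Sftpd and Plxdc2, from 8.49 down to 6.23. Mgp (matrix Gla protein, an inhibitor of calcification) stood at 5.08, 5.9, 5.8, 6.32 and 5.96 in the lungs and -2.18, -2.53, -2.9, -2.98 and -2.77 in the livers. Lungs and livers lay on opposite sides of the reference (8.49 ± 0.217, adjusted p = 4.65e-12). Cbr2, the lung carbonyl reductase, stood at 5.32 to 5.7 in the lungs and -2.57 to -2.13 in the livers (7.83 ± 0.116, adjusted p = 5.59e-14). In liver the genes were Asgr2, Nat8, Mat1a, Nat8f1, Saa1, Slc26a1, Igf1, Nudt7, Fabp1 and Serpina1a, from -7.85 to -6.90. Asgr2, a subunit of the asialoglycoprotein receptor, stood at 8.05, 7.65, 8, 8.35 and 7.96 in the livers and -0.18, 0.04, 0.31, 0.2 and 0.37 in the lungs, which did not overlap (-7.85 ± 0.145, adjusted p = 2.7e-13). Nat8 and Nat8f1, and Serpina1a among its family, have close paralogs whose signal their probes may share. Mat1a makes S-adenosylmethionine (-7.21), and Saa1 is an acute phase apolipoprotein (-7.18) whose liver level ran from 4.89 in mouse 1 to 6.99 in mouse 2.

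Different probes of a gene did not always agree. Of 3074 genes with more than 1 tested probe, 2128 had the same call on all of them and 45 had probes called in opposite directions. Ranked by the smaller of the 2 opposite changes, the first 5 were Slc10a1, the bile salt uptake carrier of hepatocytes (2.28 ± 0.158 and -6.60 ± 0.216), Tpm1, a tropomyosin with muscle and non-muscle transcripts (3.67 ± 0.87 and -2.07 ± 0.129), the coagulation factor F10 (1.88 ± 0.0975 and -5.07 ± 0.241), Ttc38 (2.16 and -1.86) and Pbld1 (1.59 and -5.19). For Slc10a1 and F10 the brighter probe was the one higher in lung, and it alone gives the exceptions counted above in the transport and coagulation lists. On the liver-high probe of Slc10a1 the livers ranged from 5.81 to 7.04 and no lung was well above background. For Tpm1 the lung-high probe read 4.87, -0.64, 0.84, -1.19 and 1.14 in the lungs of mice 1 to 5, so that its difference leans on mouse 1.

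The reference channel was not equal between the tissues for the brightest genes. Before normalization the mean log2 Cy3 signal of Sftpc, which should come from the reference alone, was 11.9 on lung arrays, 5.19 on liver arrays and 6.62 on forestomach arrays. For Scgb1a1 it was 12.4, 5.43 and 8.7. Alb showed the reverse, with 5.42 on lung and 11.6 on liver arrays, and so did Fgb with 5.45 and 10. Other strongly different genes did not, among them Cps1 with 5.52 and 5.87 and Mgp with 10.9 and 11.2. Of 346 tested probes with a difference of 6 or more in log2 ratio, 157 (45.4%) had a Cy3 signal over 2-fold brighter in the tissue with the higher ratio and 0 had one over 2-fold dimmer. Below 0.585 in size, the threshold of 1.5-fold, 55 of 11704 (0.47%) were brighter and 20 dimmer. A ratio shrinks where both channels rise together, and the cause was not tested.

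Cy5 alone, quantile normalized between the arrays, called 7669 genes (58.1%). Of the 7898 genes called on the ratio, 7164 had the same call, 734 were not called and 0 had the opposite call. Of the 5301 not called on the ratio, 505 were called on Cy5 alone, and 8 of them differed by 4-fold or more, all higher in lung. These 8, chosen after their values were seen, were Cyp2b10 (0.88 on the ratio and 4.59 on Cy5 alone), Hbb-bt (-0.43 and 4.19), Hbb-b2 (-0.26 and 4.15), Hopx (0.42 and 3.59), Hba-a1 (0.25 and 3.37), Robo4 (0.51 and 2.5), Fgf1 (-0.21 and 2.35) and Ppp1r14a (0.37 and 2.01). This setting changes both the channel used and the normalization, whose parts were not separated. Before normalization the Cy5 difference was 2.93 for Hopx, 2.5 for Hba-a1 and 3.16 for Hbb-b2, on the lung side as after it, but -0.17 for Cyp2f2, which was at -0.38 on the ratio and 1.06 on quantile-normalized Cy5. On processed signals Robo4 was called higher in liver (-1.3), and with mouse as a block Cyp2b10 was called higher in lung on the ratio (0.88).

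**Figure D4:**
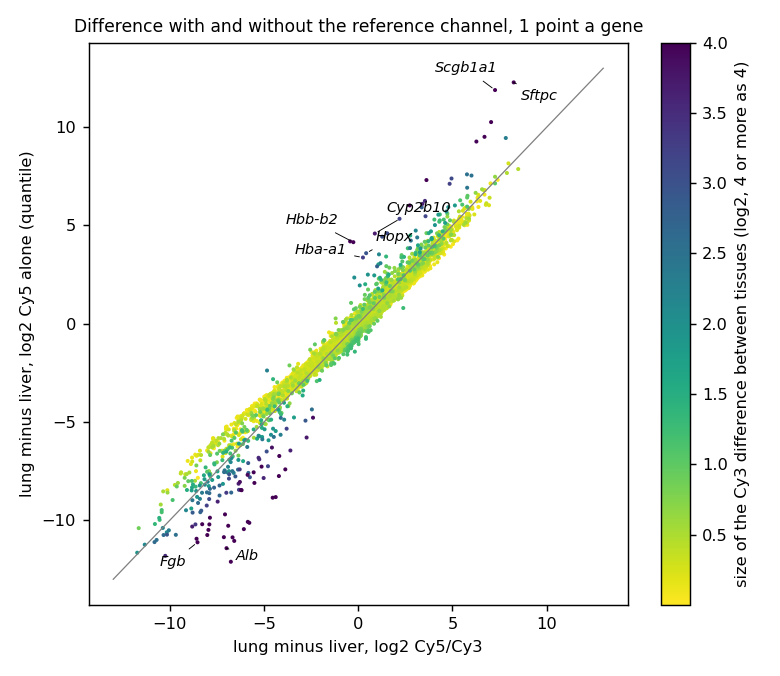
Lung minus liver difference of each tested gene on the log2 ratio (horizontal) and on quantile-normalized log2 Cy5 alone (vertical), coloured by the size of the Cy3 difference between the tissues, with the line of equality. Most genes lie near the line, while Sftpc, Scgb1a1, Alb and Fgb are wider on Cy5 alone and Hopx, Hba-a1, Hbb-b2 and Cyp2b10 are near 0 to 0.88 on the ratio but 3.37 to 4.59 on Cy5 alone.

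The contrast was then read in mice it had not used, the 15 dosed animals. In a fit over 40 arrays, lung and liver differed at 14188 probes in D1 (55.5%), 13886 in D2 (54.4%) and 14129 in D3 (55.3%). Of the 13716 probes called at D0, 13088, 12852 and 12764 had the same call in D1, D2 and D3, and 0 had the opposite one. Across probes the differences correlated with those at D0 at r = 0.995, 0.993 and 0.991, a description over probes that share arrays, slides and the reference. Sftpc differed by 8.32, 8.55 and 8.55 in the 3 dose groups, next to 8.25 in vehicle mice. No probe passed a test of whether the tissue difference changed with dose, with 0 called by limma at each dose, 418, 728 and 1490 probes at an unadjusted p under 0.05 and lowest adjusted p of 1, 1 and 0.303. With mouse as a block the counts were also 0.

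At the high dose the lung of mouse 20 stood apart, with a mean plasma protein level of 3.9, against 0.79 to 0.96 in the other D3 lungs, and a mean coagulation factor level of 2.59, against 0.27 to 0.47. The median difference of the plasma protein list was -7.95 at D0, -6.9 at D3 and -7.68 at D3 without that lung, and that of the coagulation list -7.46, -7.07 and -7.18. Without it 13966 probes were called at D3, and the test of change with dose still called 0, with 1303 at an unadjusted p under 0.05 and a lowest adjusted p of 0.535. Without the lung of mouse 1, those counts at an unadjusted p under 0.05 were 383, 634 and 1240 for D1, D2 and D3.

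**Figure D5:**
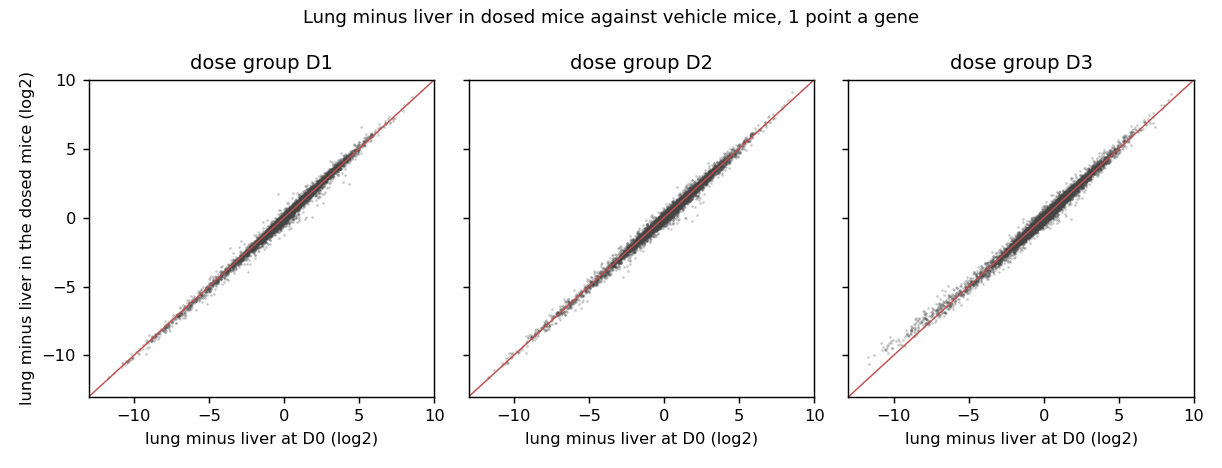
Lung minus liver difference (log2) of each tested gene in dose groups D1, D2 and D3 (vertical) against the same difference in vehicle mice (horizontal), 1 point a gene, with the line of equality. The points follow the line in all 3 groups, with r across probes of 0.995, 0.993 and 0.991.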

How the data were processed

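Per the labels and the study's methods, the authors scanned 2-colour Agilent SurePrint G3 mouse arrays, extracted features with Feature Extraction 10.7.3.1 and normalized median signals by LOWESS without background subtraction; the build in the file headers is mm9. The deposited scanner files hold intensity values per spot, and the deposited value table holds the authors' log2 ratios of Cy5 over Cy3. From the median intensities of 45 arrays (62976 spots, 3671 of them controls) log2 ratios were made by loess within each array without background subtraction, and they correlated at 0.991 to 0.999 with the deposited columns. Spots with an outlier flag (0.449%) were left out, 0 spots were saturated, and replicate spots were averaged into 55681 probes, of which 26413 (47.4%) were given a symbol through their RefSeq accession. The number of arrays limits the precision.

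Probes whose Cy5 signal exceeded background by the scanner's flag on 5 or more of the 10 arrays were tested with limma 3.58.1 in R 4.3.3 on the 5 lungs and 5 livers, without a block, and called at a Benjamini-Hochberg adjusted p of at most 0.05 and 1.5-fold. The authors used MAANOVA with residual shuffling, which was not run here. Mice were separate animals and give both tissues. Deviations of same-mouse arrays from their group means correlated at -0.123 to 0.134, and the pairing comes from the mouse number in the titles. The probe of a gene was the one with the highest mean Cy5 signal. Named genes were the 10 highest in each tissue among called genes measurable on all 10 arrays, with at most 1 gene each from the Mup, Serpina1, Cyp2c, Cyp2d, Ugt and globin families, the first 4 tested genes of each list, and, of genes with probes called in opposite directions, the 5 with the largest smaller change. Every other gene named, such as those that go against their list, was chosen after its values were seen. The members and lists were chosen with earlier results of these data known. On simulated data with 25514 probes, 76% of 100 probes changed 2-fold and 96% of 100 changed 4-fold were called in the right direction, and 8 unchanged probes were called. Only 200 probes were changed there, whereas 53.7% were called in the data, and the adjusted p depends on that share. The simulated figures therefore do not give the detection or the false calls of this comparison. Promoters came from RefSeq (GRCm38.p6) and matched 10485 of 13199 tested genes. Those of Sftpc, Scgb1a1 and Cps1 are not shown. Some genes that these rules name are not reported here. Figures were drawn with matplotlib 3.10.9 in Python 3.11.15.

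Alternatives were another background correction, the processed signals, the deposited ratios, Aquantile scaling, Cy5 alone, other filters and fold thresholds, mouse as a block, slide as a random block, all 40 lung and liver arrays, moderated variances with a trend, each array left out, and the mean over the probes of a gene. Leaving out the lungs of mice 1 and 20 in the fit over doses was chosen after seeing the data.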

Additional observations from a re-analysis of the deposited data

Results flagged for a closer look

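Single samples that lay far from the other 4 of their tissue, by Dixon's test, were found in 36 of the groups of 5 examined (366 groups for the genes given by the naming rule, 82 for list means and 2 for array measures). Chance alone marks about 1 group in 20. By array, the lung of mouse 1 had 10 of the 30 genes, the liver of mouse 2 had 8, the liver of mouse 1 had 4, the lung of mouse 3 had 3, the liver of mouse 3 and the lung of mouse 5 had 2 each and the lung of mouse 4 had 1.

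In the lung of mouse 1 the fast skeletal muscle genes Tnni2 (6.65, others -1.31 to -0.81), Tnnc2 (5.88, others -2.12 to -0.69) and Pvalb (2.76, others -0.33 to 0.13) were high, as were the squamous genes Lor (6.89, others 0.81 to 1.76), Krt5 (3.46, others -0.15 to 0.43) and Krt14 (2.98, others -1.4 to -0.53). The list means of the same lung were high for skeletal muscle (5.1), squamous epithelium (2.87) and oxidative phosphorylation (0.53, others -0.084 to 0.067). Pck1 (1.56, others -0.06 to 0.24), Per1 (1.33, others 0.14 to 0.36) and the phospholipid transporter Abcb4 (0.16, others -0.72 to -0.63) were also high there, and Igf1 was low (-1.11, others -0.73 to -0.58).

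In the liver of mouse 2, Ugt2b5 was low (6.51, others 9.75 to 10.01) and so was Ndufs1 (0.17, others 0.53 to 0.58). Mki67 (-4.96, others -5.84 to -5.6), Fgf7 (-3.47, others -4.11 to -4.01), Epcam (-1.51, others -2.37 to -2.28), Ms4a1 (-2.68, others -3.16 to -3.07), Rsph1 (-0.57, others -1.27 to -1.11) and the brightest Tpm1 probe, not one of the pair with opposite calls (-1.63, others -2.54 to -2.38), were high there. All these ratios were negative, so high here means nearer to the reference. Epcam and Rsph1 were not well above background in any liver. This array had the lowest share of probes above background among the livers (36.3%, others 40.2% to 46.2%). A link with these values was not tested. In the liver of mouse 1, Per1 (-0.64, others -2.1 to -1.7), Cfd (0.71, others -0.06 to 0.07) and S100a6 (-7.24, others -7.6 to -7.53) were high and Tbx5 was low (-0.37, others -0.13 to -0.08). Tbx5 was not well above background in any liver, so this is a reading near background.

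In other arrays, Alb was high in the lung of mouse 5 (0.91, others 0.18 to 0.27), as were Cd3g (-0.47, others -1.25 to -1.06) and the mean of the T and NK cell list (1.8, others 1.13 to 1.23). The lung of mouse 3 was high for Apoa1 (0.12, others 0.01 to 0.04) and low for Nr1i3 (-0.19, others 0.01 to 0.07) and Rpl5 (-1.6, others -0.97 to -0.75), and that of mouse 4 was high for the red cell gene Slc4a1 (4.5, others 2.82 to 3.26). The liver of mouse 3 was high for Scgb3a1 (0.26, others 0.07 to 0.12) and low for Upk3b (-1.54, others -1.22 to -1.16). Apoa1 and Nr1i3 were not well above background in any lung, nor was Scgb3a1 in any liver. Their values are readings near background and not measured levels. The liver of mouse 4 had low means of the ciliated cell list (-0.14, others -0.025 to 0.017) and of the clock list (0.29, others 0.62 to 0.75).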

How the results depend on the processing

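Of 250 named genes, 183 of them given by the naming rule, 198 were called, and 175 of all named genes kept their sign and their call or absence of one under every one of the 26 alternatives that gave them a value. On Cy5 alone, 7 of them that were called on either scale turned from the liver to the lung side: Cyp2f2 (1.06), Fgf1 (2.35), Trp63 (0.79), Hbb-b2 (4.15), Hbb-bt (4.19), Stab1 (0.62) and Alas2 (0.27). On processed signals Gpr182 (-1.92) and Robo4 (-1.3) turned to the liver side. With the mean over the probes of a gene, Slc10a1 (-2.16), Cxcl12 (-1.12), F10 (-1.59), Ttc38 (-0.56) and Pbld1 (-1.8) turned to the liver side. Against 13716 called probes, 7547 higher in lung and 6169 in liver, the counts were 8960, 5015 and 3945 when a probe had to be above background on all 10 arrays (fewer probes tested), 9044, 5151 and 3893 at 2-fold and 3643, 1968 and 1675 at 4-fold. Leaving out 1 array at a time gave 13556 to 13959 called, 7429 to 7661 higher in lung and 6065 to 6347 higher in liver. Processed signals gave 16582 (7853 and 8729, with 7 opposite calls, cause not tested), the deposited ratios 13808, normexp 13577, Cy5 alone 12987 and no filter 14669 of 55681. With mouse as a replicate block 13756 probes were called (7565 and 6191), 13708 of them shared, and the named genes Arntl (-0.64), Cyp2b10 (0.88) and Hspa8 (0.71) gained a call. With slide as a random block 13701 were called, which does not separate slide from tissue. Outside the fold thresholds, named calls were lost by Acaca (-0.58 with normexp, -0.38 with the deposited ratios, -0.34 on Cy5 alone, -0.52 and -0.5 without the lung or the liver of mouse 5), Ndufa1 (-0.58 with normexp, -0.27 on Cy5 alone), Ndufb8 (-0.58 and -0.55), Ndufs1 (-0.5 on Cy5 alone, -0.46 with the deposited ratios), and, on processed signals, Cldn5 (0.75), Ccl21a (0.35) and Rpl3 (0.51). Of 82 list counts 30 moved by over 1.5 times under some alternative. On Cy5 alone 4 red cell genes were higher in lung and 0 in liver, and 4 P450 genes were higher in lung. The number and brightness of arrays limit weak genes, since a probe dim in 1 tissue has only a bound there.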

Other observations

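Some genes known to be higher in male than in female mouse liver differed widely in these male mice. They were picked after their values were seen, and genes of this kind were not counted. The major urinary protein Mup20 was at 9.46 to 10.69 in the livers and not well above background in any lung (-10.24 ± 0.19, limma adjusted p = 2.74e-13, at least 1210-fold), although Mup genes are near-identical and share signal. Sult2a8 (-9.57, at least 261-fold), Cyp4a12a (-8.96), Cyp2d9 (-8.14, at least 273-fold), Hsd3b5 (-6.85, at least 115-fold) and Elovl3 (-5.89, at least 59.2-fold) went the same way, as did the growth hormone receptor Ghr (-3.58 ± 0.16).

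Both tissues of mouse 2 had high levels of heat shock genes. Hspa1a stood at 2.82 in its lung, against -0.33 to 0.22 in the other lungs, and at 2.09 in its liver, against -0.51 to 0.04 in the other livers. Hsph1 (2.03 in lung and 1.24 in liver), Hspa8 (1.68 and 0.9) and Hsp90aa1 (2.02 and 0.49) were highest in the same mouse in both tissues. In the liver of that mouse the acute phase genes Saa2 (9.32), Saa3 (-0.41) and Lcn2 (2.9) were the highest of the 5 livers, and Igfbp1 (3.31) and Ugt2b5 (6.51) the lowest.

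The liver of mouse 5 had low levels of the cytokine-induced gene Cish (-0.66, others 2.31 to 3.79), of Socs2 (-0.28, others 1.32 to 2.67), of Alas1, the first enzyme of haem synthesis (1.16, others 2.46 to 4.38), and of the factor Onecut1 (0.64, others 2.09 to 4.33). In the liver of mouse 4 the clock output gene Dbp was at -2.39, against 0.1 to 1.1 in the other livers. Cyp2c23 was at 4.63 in the liver of mouse 3 and at 7.11 to 8.45 in the others. These values are given as measured.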
